A study of Mus musculus with 10 samples.

Results

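The genes described here are the WNT ligands, their receptors and the secreted proteins that modulate them in full-thickness dorsal mouse skin. They were chosen by gene symbol: every symbol that starts with Wnt, Fzd, Dkk or Rspo followed by a digit, together with Lgr4, Lgr5, Lgr6, Lrp5, Lrp6, Axin2 and Wif1. This gave 44 of the 24358 gene symbols in the count tables, namely 19 WNT ligands, 10 Frizzled receptors, 2 LRP co-receptors, 4 R-spondins, 3 LGR receptors, 5 secreted inhibitors and the feedback gene Axin2. The 10 RNA sequencing libraries came from 5 untreated mice on a C57Bl/6 background, and each mouse gave 1 lesional and 1 uninvolved biopsy. An IL-17C transgene is present in all 5 mice, which have psoriasis-like lesional areas, so no library comes from skin without the transgene. Mice 2392 and 2465 are labelled IL-17C+KO, where the series title names interleukin-6 as the knocked-out gene, and mice 2237, 2275 and 2296 are labelled IL-17C+. The mice were 10 or 14 weeks old. The labels give neither the age of each mouse nor the promoter of the transgene, so age and genotype label cannot be told apart. Values of single biopsies are given below in the order 2392, 2465 and in the order 2237, 2275, 2296.

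WNT proteins are lipid-modified secreted ligands that bind a Frizzled receptor together with LRP5 or LRP6. In the canonical branch this stabilises β-catenin, which then activates TCF/LEF target genes, Axin2 among them, while noncanonical ligands such as WNT5A act mainly through planar cell polarity and calcium signalling. R-spondins bind LGR4, LGR5 or LGR6 and keep Frizzled receptors at the cell surface, DKK proteins block the LRP co-receptors, and WIF1 binds the ligands themselves. In skin, WNT signalling is known for driving hair follicle formation and the growth phase of the follicle (anagen).

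The libraries held 21056850 to 31072491 counts, of which the 44 genes took 0.0821 to 0.149%, and the floor of 3 counts behind a count of 0 corresponded to 0.0965 to 0.142 CPM (counts scaled to library size). Il6 had 315 and 300 counts in lesional and 71 and 55 counts in uninvolved skin of the mice labelled IL-17C+KO, against 26, 18 and 69 counts in lesional and 9, 4 and 6 counts in uninvolved IL-17C+ skin. Within each skin type, Il6 was thus counted more often in the libraries labelled as its knockout. The labels do not say which part of the gene was deleted, so these counts do not check the label, and each genotype direction below is that of the libraries labelled IL-17C+KO. The labelled tissue had its defining markers: all 6 markers of basal keratinocytes were detected in every library and summed to 4959 to 13765 CPM. The 26 markers of the anagen hair follicle varied widely between biopsies (Krt85 and Shh were at 0 in 1 library each), with sums of 55.4 and 3193 CPM in lesional and 101.7 and 70.2 CPM in uninvolved skin labelled IL-17C+KO, and of 9867, 11844 and 1660 CPM in lesional and 13431, 69.0 and 2896 CPM in uninvolved IL-17C+ skin. In whole biopsies, fewer cells of a type and less RNA per cell cannot be told apart.

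RefSeq (build GRCm38.p6) gave a promoter window, 250 bases before to 50 bases after the gene start, for 29 of the 44 genes. Shown are the windows of Wnt3a, Wnt3, Rspo4, Wnt2 and Fzd9, which rank lowest by lesional p-value among members that have a window, and of Fzd1, the gene with the highest mean FPKM. The median GC content was 69.5% in the members' windows and 52.7% over all 32851 windows. Wnt3a lies at chr11:59290702-59291001, minus strand, Wnt3 at chr11:103773925-103774224, plus strand, Wnt2 at chr6:18030396-18030695, minus strand, Rspo4 at chr2:151842677-151842976, plus strand, Fzd9 at chr5:135250998-135251297, minus strand and Fzd1 at chr5:4758167-4758466, minus strand. Capitals mark the TCF/LEF core motif, CTTTGA or TCAAAG on the other strand.
Wnt3a: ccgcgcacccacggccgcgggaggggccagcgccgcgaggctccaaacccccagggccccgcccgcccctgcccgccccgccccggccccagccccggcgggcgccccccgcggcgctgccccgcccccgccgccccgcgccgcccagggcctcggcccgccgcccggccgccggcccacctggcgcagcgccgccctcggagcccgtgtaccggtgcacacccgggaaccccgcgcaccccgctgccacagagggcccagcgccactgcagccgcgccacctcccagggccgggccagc
Wnt3: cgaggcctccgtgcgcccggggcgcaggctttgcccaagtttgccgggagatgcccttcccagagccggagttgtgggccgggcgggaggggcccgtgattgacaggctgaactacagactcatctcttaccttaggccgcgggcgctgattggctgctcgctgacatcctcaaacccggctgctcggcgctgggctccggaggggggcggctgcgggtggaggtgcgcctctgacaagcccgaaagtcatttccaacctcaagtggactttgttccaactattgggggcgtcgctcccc
Wnt2: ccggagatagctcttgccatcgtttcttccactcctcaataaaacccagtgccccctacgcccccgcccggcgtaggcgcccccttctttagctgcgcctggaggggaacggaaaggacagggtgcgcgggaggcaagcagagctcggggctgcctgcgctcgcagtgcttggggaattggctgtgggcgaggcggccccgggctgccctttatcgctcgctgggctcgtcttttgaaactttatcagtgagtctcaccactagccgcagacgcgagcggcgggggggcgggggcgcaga
Rspo4: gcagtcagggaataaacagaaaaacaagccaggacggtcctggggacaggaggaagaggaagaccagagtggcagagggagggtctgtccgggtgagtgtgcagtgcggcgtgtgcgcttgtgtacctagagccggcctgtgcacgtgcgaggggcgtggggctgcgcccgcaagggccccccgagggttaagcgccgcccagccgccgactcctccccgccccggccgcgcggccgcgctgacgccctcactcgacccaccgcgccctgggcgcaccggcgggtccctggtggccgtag
Fzd9: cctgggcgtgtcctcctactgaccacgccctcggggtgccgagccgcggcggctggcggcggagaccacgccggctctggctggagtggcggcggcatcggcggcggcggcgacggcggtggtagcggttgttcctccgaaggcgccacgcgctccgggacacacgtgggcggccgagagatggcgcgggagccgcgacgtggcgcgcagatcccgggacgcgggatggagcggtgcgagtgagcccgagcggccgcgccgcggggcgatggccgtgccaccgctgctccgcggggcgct
Fzd1: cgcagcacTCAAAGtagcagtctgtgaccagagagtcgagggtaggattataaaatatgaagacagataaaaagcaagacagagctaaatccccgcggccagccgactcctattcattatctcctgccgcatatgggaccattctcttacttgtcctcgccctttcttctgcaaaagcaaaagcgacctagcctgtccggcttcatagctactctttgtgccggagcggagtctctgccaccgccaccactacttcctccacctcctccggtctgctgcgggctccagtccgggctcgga
The TCF/LEF core was found in the windows of 4 of the 29 members, Dkk1, Fzd1, Wnt11 and Wnt5b, and in 16.0% of all windows. Of the genes shown, Fzd1 held it, at bases 9 to 14. The motif TTCNNNGAA bound by STAT factors, which interleukin-6 activates, was found in 1 member window, of Wnt5b, and in 8.3% of all windows. TGANTCA, bound by AP-1, was also found in a Wnt5b window and in 7.8% of all windows. Both of these motifs read the same on either strand, and each of the 3 matches of Wnt5b lay in a different one of its windows.

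Length-normalised levels were compared as the authors' FPKM (fragments normalised to gene length and library size), averaged over the 10 libraries. The mean FPKM was over 10 for 10 of the 44 genes, between 1 and 10 for 22 and under 1 for 12. Highest were the receptor Fzd1 (20.7 FPKM, range 10.1 to 36.2), the ligand Wnt4 (20.6, range 13.7 to 26.8), the ligand Wnt10a (20.0, range 11.5 to 25.0) and the secreted glycoprotein Dkk3 (19.2, range 8.32 to 58.6), whose ranges overlap. Among the LRP co-receptors the mean was 14.6 FPKM for Lrp5 and 7.67 for Lrp6. LGR receptors averaged 13.2 FPKM for Lgr4, 3.35 for Lgr6 and 2.54 for Lgr5, and R-spondins 4.92 for Rspo1, 1.07 for Rspo4, 0.652 for Rspo3 and 0.128 for Rspo2. The ligand Wnt8b had 0 counts in all 10 libraries, Wnt1 had 2 and 1 counts in the uninvolved libraries 2392 and 2465 and 0 elsewhere, and Wnt8a and Dkk4 had at most 3 and 6 counts in any library. With Dkk1, at 1 to 9 counts, these 5 genes did not pass the filter on low counts, which left 39 for the tests.

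**Figure D1:**
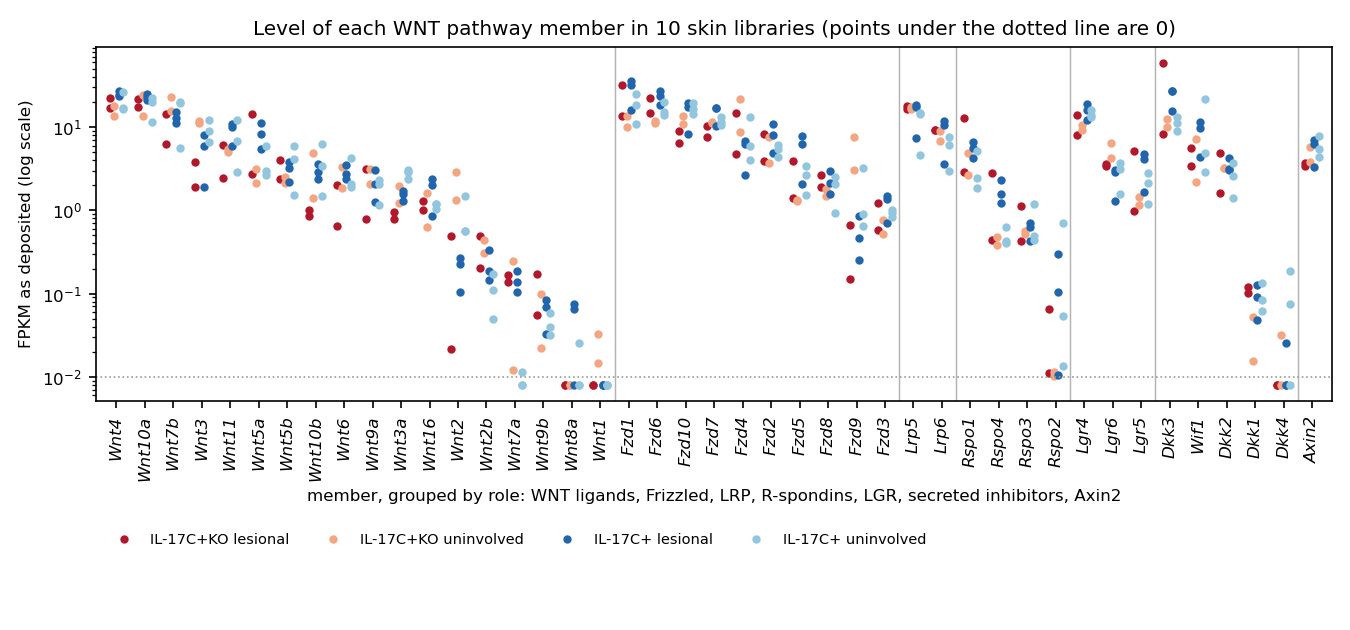
Deposited FPKM (log scale) of the WNT genes in each of the 10 libraries, grouped by role, with colours for genotype label and skin type. Fzd1, Wnt4, Wnt10a and Dkk3 have the highest means (19.2 to 20.7 FPKM), and Wnt8b, at 0 in every library, is not drawn.

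Lesional and uninvolved skin of the same mouse were compared first over all 5 mice. No WNT gene passed a false discovery rate (FDR) of 0.05 in edgeR's quasi-likelihood test with Benjamini-Hochberg adjustment, against 0.0497% of the 16083 genes tested. At an unadjusted p under 0.05, 4 of the 39 members were higher in lesional skin, as were 10.1% of all genes, and 5 were lower, as were 11.5% of all genes, so the members' shares are near the background. The direction was the same in every mouse for 2 members that were higher (Wnt5a and Rspo4; 9.12% of all genes) and 3 that were lower (Wnt3a, Wnt2 and Fzd9; 9.73%). The median log2 difference was 0.11 over the members and -0.01 over all genes. DESeq2 on the same counts called 7 members, Wnt3a, Wnt3, Wnt2, Fzd9, Wnt5a, Rspo4 and Wnt7a, beside 2036 (12.7%) of all genes, and limma-voom called none. Without mouse 2237, edgeR called 3 members, Wnt3a, Wnt3 and Wnt7b, beside 1252 (7.86%) of all genes. The fit with no pairing by mouse called 2 members, Wnt3a and Wnt2, beside 5.54% of all genes.

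The ligands with the smallest p were lower in lesional skin. Wnt3a, a canonical ligand used to sustain hair follicle-inducing activity in culture, had 2.22 and 2.63 CPM in lesional and 3.84 and 6.02 CPM in uninvolved skin labelled IL-17C+KO, and 4.21, 4.59 and 3.88 CPM in lesional and 7.26, 9.04 and 8.73 CPM in uninvolved IL-17C+ skin. Within each label every lesional value lay below every uninvolved value. The log2 difference was -0.98 ± 0.20 (SE, n = 5 mice, adjusted p = 0.0826, edgeR), with per-mouse differences from -1.17 to -0.77. Wnt3 had 12.1 and 6.02 CPM in lesional and 40.1 and 41.7 CPM in uninvolved skin labelled IL-17C+KO, and 24.4, 18.4 and 6.63 CPM in lesional and 23.1, 42.2 and 30.9 CPM in uninvolved IL-17C+ skin. Lesional values of this canonical ligand were below the uninvolved value in 4 of 5 mice, and mouse 2237 had nearly equal values. Its log2 difference was -1.58 ± 0.41 (adjusted p = 0.116, edgeR), and without mouse 2237 it was -1.98 ± 0.28 (adjusted p = 0.0235), past the FDR. Wnt2 had 1.02 and 0.0446 CPM in lesional and 3.17 and 6.68 CPM in uninvolved skin labelled IL-17C+KO, and 0.451, 0.544 and 0.235 CPM in lesional and 3.42, 1.27 and 1.28 CPM in uninvolved IL-17C+ skin. Groups did not overlap under either label, and the lesional value of mouse 2465 rests on 1 count. The fitted log2 difference of Wnt2 was -2.67 ± 0.71 (adjusted p = 0.118, edgeR) and -2.03 ± 0.40 without mouse 2465.

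Wnt5a, the main noncanonical ligand, was higher in lesional skin of all 5 mice by different amounts. Wnt5a stood at 11.2 and 57.6 CPM in lesional and 9.56 and 14.1 CPM in uninvolved skin labelled IL-17C+KO, and 31.5, 43.7 and 23.1 CPM in lesional and 25.8, 13.0 and 11.7 CPM in uninvolved IL-17C+ skin. The lesional values of mice 2465 and 2275 were the highest, and mouse 2392 differed little. The log2 difference was 1.05 ± 0.32 (adjusted p = 0.135, edgeR) and, without mice 2275 and 2465, 0.52 ± 0.29. All 12 fibroblast markers were detected in every library, with sums of 9548 and 32044 CPM in lesional and 3420 and 4886 CPM in uninvolved skin labelled IL-17C+KO, and of 6512, 14378 and 8747 CPM in lesional and 4783, 3006 and 3644 CPM in uninvolved IL-17C+ skin. The 2 lesional libraries highest in Wnt5a thus also had the highest sums of fibroblast markers. In these libraries most of the sum came from the collagen genes Col1a1, Col1a2 and Col3a1. Of the other markers, Dcn, Lum, Dpt, Pdgfra and Thy1 were lower in the lesional biopsy of mouse 2275 than in that of mouse 2296. Pdgfrb, Fbn1, Col5a1 and Col6a1 were higher. The part of fibroblast markers in the Wnt5a difference was not tested. Wnt7a was counted 0 to 23 times per library, and its log2 difference of 2.30 ± 0.97 (adjusted p = 0.230, edgeR) rests on these few counts. The other 11 tested ligands had log2 differences of -0.78 (Wnt10b) to 0.53 (Wnt9b), and over all 16 tested ligands 7 differences were positive and 9 negative. Abundant Wnt4 differed by 0.20 ± 0.18 and Wnt10a, mutated in human ectodermal dysplasia, by 0.15 ± 0.23.

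Members of the WNT family that lie next to each other in the genome (GENCODE M21, GRCm38) are given side by side. Wnt3a (chr11:59248033-59290752, minus strand) lies 16.2 kb from Wnt9a (chr11:59306928-59333552, plus strand), and the log2 differences were -0.98 for Wnt3a and -0.30 ± 0.34 for Wnt9a. Wnt3 (chr11:103774150-103817957, plus strand) lies 24.3 kb from Wnt9b, which differed by 0.53 ± 0.58. Wnt6 and Wnt10a lie 6.2 kb apart on chromosome 1 and differed by -0.47 ± 0.38 and 0.15 ± 0.23. Wnt10b lies 11.7 kb from Wnt1 on chromosome 15, and Wnt1 was too low to test. These pairs were not tested against each other.

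**Figure D2:**
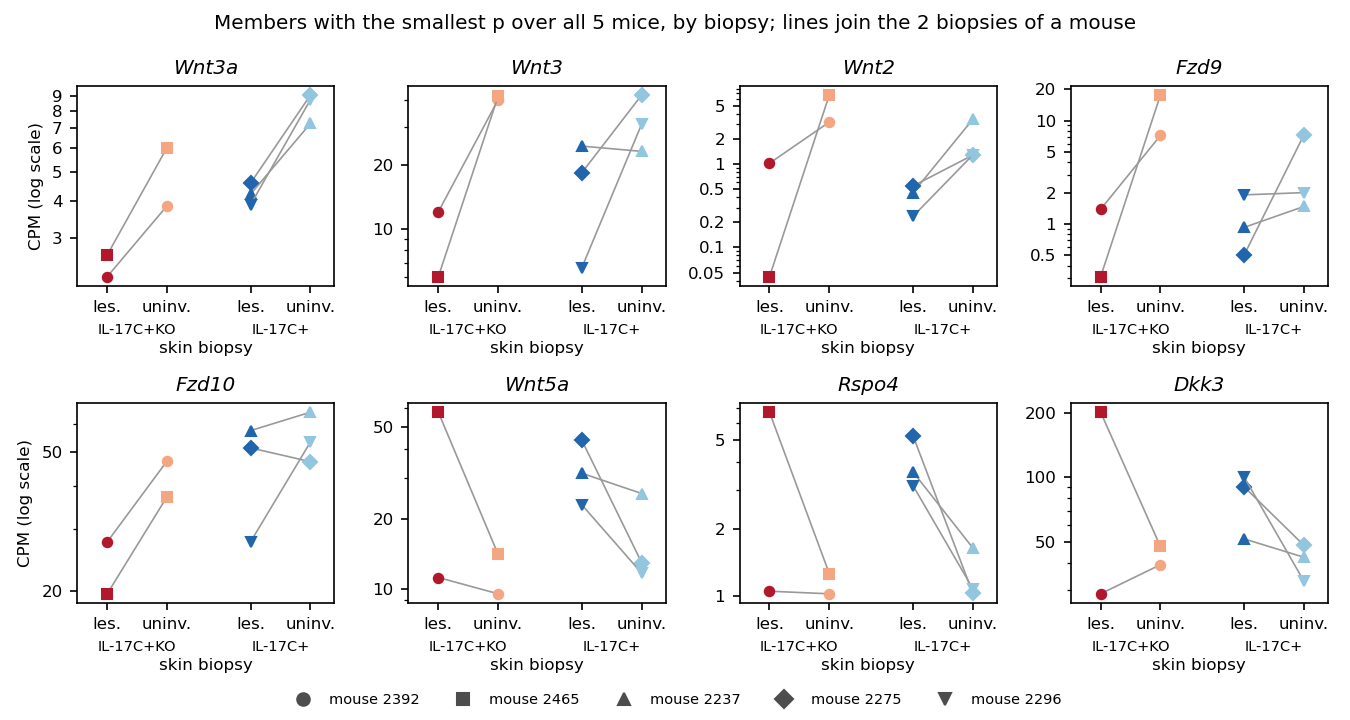
CPM (log scale) of the 8 members with the smallest p over all 5 mice and a mean of at least 1 CPM, by biopsy, with lines joining the lesional and uninvolved biopsies of a mouse. Wnt3a, Wnt2 and Fzd9 are lower, and Wnt5a and Rspo4 higher, in the lesional biopsy of all 5 mice.

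Among the Frizzled receptors, 6 of 10 log2 differences were positive and 4 negative, with a median of 0.21. Fzd9 had 1.40 and 0.312 CPM in lesional and 7.19 and 17.6 CPM in uninvolved skin labelled IL-17C+KO, and 0.933, 0.505 and 1.92 CPM in lesional and 1.49, 7.29 and 2.02 CPM in uninvolved IL-17C+ skin. Uninvolved values were high in mice 2392, 2465 and 2275 and low in the others, where the 2 biopsies of a mouse were close. Its log2 difference was -2.41 ± 0.87 (adjusted p = 0.173, edgeR), and -1.02 ± 0.54 without mice 2275 and 2465. The 14 skeletal muscle markers were all detected in every library, and their sums were 5595 and 944 CPM in lesional and 34078 and 56201 CPM in uninvolved skin labelled IL-17C+KO, and 7790, 4636 and 3304 CPM in lesional and 7078, 39209 and 14121 CPM in uninvolved IL-17C+ skin. The 3 biopsies with the highest Fzd9 were those with the most muscle RNA. Its part in the Fzd9 difference was not tested. Fzd10 had 27.6 and 19.6 CPM in lesional and 47.0 and 37.1 CPM in uninvolved skin labelled IL-17C+KO, and 57.5, 51.3 and 27.6 CPM in lesional and 64.9, 46.8 and 53.3 CPM in uninvolved IL-17C+ skin. Lesional values were lower in 4 mice and slightly higher in mouse 2275, with a log2 difference of -0.54 ± 0.21 (adjusted p = 0.204, edgeR). The other 8 Frizzled genes had log2 differences of -0.71 (Fzd4, also a receptor of norrin) to 0.78 (Fzd5), and Fzd6, which orients hairs in mice, differed by 0.43 ± 0.19 (adjusted p = 0.251, edgeR).

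The largest differences of the LRP co-receptors were in mouse 2237, with lesional minus uninvolved log2 CPM of 1.72 for Lrp5 and 1.66 for Lrp6, and both were negative in mouse 2296, at -0.92 and -0.75. Lrp5 had 90.8 and 97.9 CPM in lesional and 102 and 104 CPM in uninvolved skin labelled IL-17C+KO, and 91.5, 96.1 and 44.0 CPM in lesional and 27.6, 87.1 and 83.5 CPM in uninvolved IL-17C+ skin. Lrp6 was likewise low in the uninvolved biopsy of mouse 2237, with 32.3 CPM against 66.2 to 99.1 CPM in the other 4 uninvolved biopsies. That biopsy had the highest sum of anagen markers, 13431 CPM. The lesional biopsies of mice 2275 and 2237 came next, at 11844 and 9867 CPM, with 96.1 and 91.5 CPM of Lrp5. In the lesional biopsy of mouse 2296 Lrp5 was 44.0 CPM at an anagen sum of 1660 CPM. The biopsies lowest in Lrp5, uninvolved 2237 and lesional 2296, were also the lowest in other pathway genes. Among them were Apc (17.0 and 28.1 CPM), Bcl9l (14.0 and 23.7 CPM) and Gsk3b (33.5 and 47.7 CPM). Ctnnb1 and the keratinocyte marker Krt14 did not share this order. The part of the anagen markers, and of whatever these genes share, in the Lrp5 and Lrp6 differences was not tested. Over all 5 mice the log2 differences were 0.12 ± 0.36 for Lrp5 and 0.30 ± 0.33 for Lrp6, both within their error.

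Rspo4, needed for nail growth in humans, had the smallest p among the R-spondins. Rspo4 had 1.06 and 6.69 CPM in lesional and 1.03 and 1.27 CPM in uninvolved skin labelled IL-17C+KO, and 3.61, 5.25 and 3.14 CPM in lesional and 1.65, 1.04 and 1.08 CPM in uninvolved IL-17C+ skin. Under the IL-17C+ label every lesional value exceeded every uninvolved value, whereas mouse 2392 had nearly equal values. The log2 difference was 1.52 ± 0.40 (adjusted p = 0.116, edgeR). Rspo1 differed by 0.73 ± 0.36, Rspo3 by -0.07 ± 0.42 and Rspo2, at 1 to 64 counts, by -0.06 ± 0.70. Lgr5, which marks follicle stem cells in mice, had 4.79 and 25.0 CPM in lesional and 6.43 and 7.94 CPM in uninvolved skin labelled IL-17C+KO, and 19.8, 22.7 and 8.87 CPM in lesional and 15.2, 6.37 and 11.2 CPM in uninvolved IL-17C+ skin. Lesional levels exceeded uninvolved ones for mice 2237, 2275 and 2465, whose lesional biopsies also held the highest anagen sums of lesional skin, and were lower for mice 2296 and 2392. In mouse 2237 the anagen sum was lower in the lesional biopsy (9867 CPM) than in the uninvolved one (13431 CPM) while Lgr5 was higher, and the part of these markers in the Lgr5 difference was not tested. Its log2 difference of 0.62 ± 0.40 (adjusted p = 0.420, edgeR) became -0.10 ± 0.31 without mice 2275 and 2465. Lgr6 had 12.9 and 13.5 CPM in lesional and 17.9 and 26.8 CPM in uninvolved skin labelled IL-17C+KO, and 10.4, 11.0 and 5.30 CPM in lesional and 6.44, 15.0 and 12.7 CPM in uninvolved IL-17C+ skin. Lesional values of this receptor, another follicle stem cell marker in mice, were lower in 4 mice and higher in mouse 2237, with a log2 difference of -0.50 ± 0.30 (adjusted p = 0.374, edgeR). Lgr4, the most abundant of the 3, differed by -0.03 ± 0.16.

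Of the secreted inhibitors, Dkk3, a DKK family member that differs from the others in not acting as a general LRP antagonist, had the smallest p. Dkk3 had 28.7 and 201 CPM in lesional and 39.2 and 47.7 CPM in uninvolved skin labelled IL-17C+KO, and 51.7, 90.4 and 100.4 CPM in lesional and 42.5, 48.3 and 32.9 CPM in uninvolved IL-17C+ skin. The lesional library of mouse 2465 stood far above the rest and that of mouse 2392 was the lowest. The Dkk3 log2 difference was 0.89 ± 0.37 (adjusted p = 0.227, edgeR) and 0.59 ± 0.35 without mouse 2465, whose lesional library also had the highest sum of fibroblast markers. The lesional library of mouse 2392, lowest in Dkk3, held 9548 CPM of these markers, more than any uninvolved library. Their part in the Dkk3 difference was not tested. Dkk2 differed by 0.11 ± 0.31. Wif1 had 7.62 and 12.5 CPM in lesional and 5.59 and 17.6 CPM in uninvolved skin labelled IL-17C+KO, and 24.5, 21.3 and 10.4 CPM in lesional and 54.0, 11.7 and 6.85 CPM in uninvolved IL-17C+ skin. Its highest value was in the uninvolved biopsy of mouse 2237, the one with the most anagen marker RNA, and the groups overlapped. Lesional biopsies of mice 2237 and 2275 came next in both Wif1 and anagen sum. The uninvolved biopsy of mouse 2465 had 17.6 CPM of Wif1 at an anagen sum of 70.2 CPM. The part of these markers in the Wif1 values was not tested. The log2 difference of Wif1 was 0.06 ± 0.32 (adjusted p = 0.934, edgeR), whose sign turned when any of mice 2275, 2296 or 2392 was left out. The β-catenin target Axin2, which feeds back as a scaffold of the destruction complex, had 15.1 and 16.4 CPM in lesional and 19.2 and 28.0 CPM in uninvolved skin labelled IL-17C+KO, and 29.7, 26.6 and 15.9 CPM in lesional and 21.4, 36.8 and 26.4 CPM in uninvolved IL-17C+ skin. Lesional values were lower in 4 of 5 mice, and higher in mouse 2237. For Axin2 the log2 difference was -0.37 ± 0.22 (adjusted p = 0.369, edgeR).

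**Figure D3:**
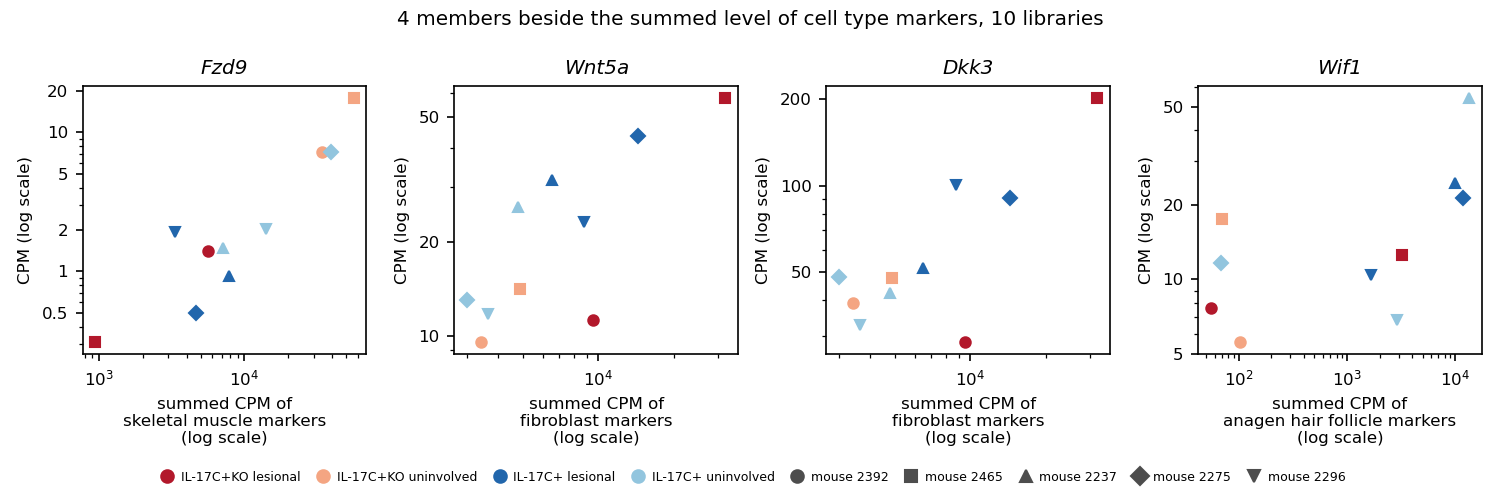
CPM of Fzd9, Wnt5a, Dkk3 and Wif1 against the summed CPM of cell type markers in the 10 libraries (log scales), with colours for group and symbols for mouse. Fzd9 is highest in the 3 uninvolved biopsies with 34078 to 56201 CPM of muscle markers, and Wnt5a and Dkk3 are highest in the lesional biopsy with 32044 CPM of fibroblast markers. Dkk3 is lowest in the lesional biopsy of mouse 2392, with 9548 CPM of fibroblast markers.

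Within each genotype label the paired difference was estimated in 1 fit of all 10 libraries, so both estimates share its spread and the libraries of the 5-mouse comparison. Under the IL-17C+KO label (n = 2 mice), no member passed the FDR in edgeR, against 0.0124% of all genes, DESeq2 called 3 (Wnt3, Fzd9 and Wnt2) beside 7.19% of all genes, and limma-voom called none. At an unadjusted p under 0.05, 0 of 39 members were higher, against 6.16% of all genes, and 7 were lower (Wnt3, Fzd9, Wnt2, Wnt3a, Wnt10b, Wnt6 and Fzd10), against 7.31%. Both mice were lower in lesional skin for 16 members and higher for 5, where 34.5% and 33.3% of all genes were lower and higher. On the log2 scale the difference was -2.26 ± 0.59 for Wnt3 (adjusted p = 0.237, edgeR), -3.92 ± 1.23 for Fzd9 (0.280), -3.56 ± 1.22 for Wnt2 (0.298) and -0.99 ± 0.37 for Wnt3a (0.327). The Wnt2 value was -1.63 ± 0.86 without mouse 2465 and -7.08 ± 1.22 without mouse 2392, and the Fzd9 value -2.36 without mouse 2465 and -5.81 without mouse 2392. Of the 16 tested ligands 11 had a negative difference, with a median of -0.49, while the median of all members was -0.05 (-0.37 without mouse 2465) and that of all genes 0.00.

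In the IL-17C+ mice (n = 3) no gene at all passed the FDR in edgeR (0% of 16083), and DESeq2 and limma-voom called no member. At an unadjusted p under 0.05, 2 members were higher, against 3.54% of all genes, and 2 were lower, against 2.87%. All 3 mice were higher in lesional skin for 7 members (12.2% of all genes) and lower for 3 (13.7%). Wnt3a differed by -0.98 ± 0.30 (adjusted p = 0.685, edgeR), Rspo4 by 1.66 ± 0.54 (0.729), Wnt2 by -2.19 ± 0.90 (0.771) and Wnt3 by -1.11 ± 0.48 (0.778) on the log2 scale. The median over the members was 0.22, against -0.02 over all genes, and 10 of 16 ligands had a positive difference, with a median of 0.16. Without mouse 2275 these medians were 0.024 over the members and 0.033 over the ligands, and without mouse 2296 they were 0.44 and 0.36. The Wnt3 difference was -1.70 without mouse 2237 and -0.54 without mouse 2296.

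The difference between the lesional changes of the 2 labels was tested directly. No gene passed the FDR (0% of 16083; edgeR, and no member by DESeq2 or limma-voom), and no member had an unadjusted p under 0.05, against 0.572% of all genes that were higher and 0.597% that were lower. The estimate was negative, meaning a lower lesional change under the IL-17C+KO label, for 29 of 39 members and for 13 of 16 ligands. Medians were -0.33 over the members, -0.94 over the ligands and 0.00 over all genes. The median over the ligands was -0.46 without mouse 2237. Per-mouse differences of the 2 labels did not overlap for 0 members in the higher direction (5.46% of all genes) and for 5 in the lower one (Wnt6, Wnt2b, Fzd7, Wnt7b and Fzd2; 5.02%). Wnt6 had differences of -1.66 and -0.85 in the mice labelled IL-17C+KO, against -0.81, 0.63 and 0.34 in IL-17C+ mice, so that the higher IL-17C+KO value lay just below the lowest IL-17C+ value. The log2 estimate of the difference was -1.33 ± 0.64 for Wnt6, -0.70 ± 0.39 for Fzd7, -1.43 ± 0.82 for Wnt10b and -2.50 ± 1.53 for Fzd9 (adjusted p = 1 each, edgeR). With 1 mouse left out, Wnt10b ranged from -2.44 (without mouse 2392) to -0.41 (without mouse 2465) and Fzd9 from -4.39 to -0.95 (without the same mice), and the median over the members from -0.58 (without mouse 2296) to -0.24 (without mouse 2237).

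**Figure D4:**
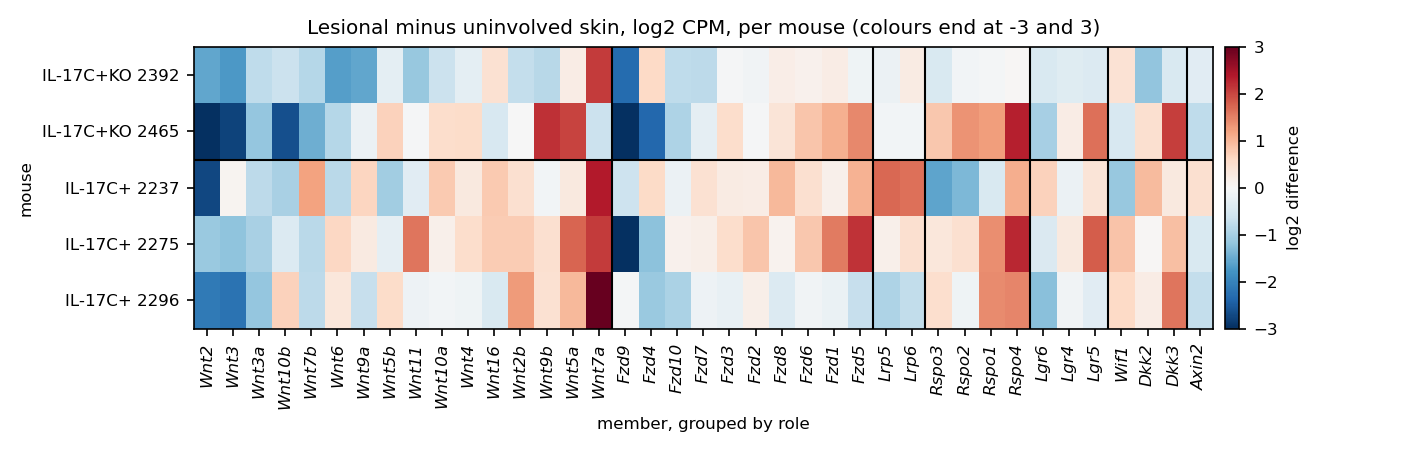
Lesional minus uninvolved log2 CPM of each tested WNT gene in each of the 5 mice, grouped by role (columns) and mouse (a row each, labelled with genotype), where red is higher and blue lower in lesional skin. The median over the members is -0.37 for mouse 2392, -0.03 for mouse 2465, 0.29 for mouse 2237, 0.48 for mouse 2275 and -0.12 for mouse 2296.

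Libraries labelled IL-17C+KO and IL-17C+ were then compared within one skin type. In lesional skin (2 against 3 mice) no gene passed the FDR in edgeR (0% of 15691), and DESeq2 called 1 member, Wnt10b (adjusted p = 0.000594), beside 1.36% of all genes, while limma-voom called none. Of 38 tested members 0 were higher and 3 lower at an unadjusted p under 0.05, against 4.77% and 2.53% of all genes. Groups did not overlap for 8 members that were lower (13.2% of all genes) and 1, Lgr6, that was higher (11.8%). Wnt10b, a ligand that promotes follicle growth in mice, had 2.26 and 1.87 CPM in lesional skin labelled IL-17C+KO, against 7.61, 6.10 and 5.69 CPM in lesional IL-17C+ skin. All 3 IL-17C+ values exceeded both others, and the log2 difference was -1.62 ± 0.29 (adjusted p = 0.534, edgeR). Wnt3a differed by -0.77 ± 0.28 (0.634), Fzd7 by -0.68 ± 0.26 (0.670) and Fzd10 by -0.92 ± 0.37 (0.688). The difference was negative for 24 of 38 members, with a median of -0.23 that became -0.77 without mouse 2465 and -0.03 without mouse 2392, against 0.01 over all genes. Anagen sums in these libraries were 55.4 and 3193 CPM under IL-17C+KO and 1660 to 11844 CPM under IL-17C+, and their part in these differences was not tested.

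Uninvolved skin gave 36 tested members, and no gene passed the FDR in edgeR (0% of 15568), with no member called by DESeq2 or limma-voom. At an unadjusted p under 0.05, 2 members were higher (Fzd9 and Wnt2b), against 1.91% of all genes, and 0 were lower, against 1.82%. Groups did not overlap for 3 members that were higher (10.5% of all genes) and 5 that were lower (10.6%). Fzd9 had 7.19 and 17.6 CPM in uninvolved skin labelled IL-17C+KO, against 1.49, 7.29 and 2.02 CPM in IL-17C+ skin. Mouse 2275 overlapped with the IL-17C+KO values, and the log2 difference of 1.79 ± 0.75 (adjusted p = 0.849, edgeR) became 2.83 ± 0.56 (adjusted p = 0.0251) without that mouse, past the FDR, as were 1.57% of all genes then tested. Muscle marker sums were 34078 and 56201 CPM in these IL-17C+KO libraries, against 7078 and 14121 CPM in the 2 IL-17C+ libraries then left. Lgr6 had 17.9 and 26.8 CPM in uninvolved skin labelled IL-17C+KO, against 6.44, 15.0 and 12.7 CPM in IL-17C+ skin. Both IL-17C+KO values were above the 3 IL-17C+ values, with a log2 difference of 0.99 ± 0.42. Among the uninvolved biopsies, Lgr6 and the muscle marker sum were both highest in mouse 2465 and lowest in mouse 2237. Mouse 2392 had more Lgr6 than mouse 2275 at a lower muscle sum, 34078 against 39209 CPM. The part of muscle RNA in the Fzd9 and Lgr6 differences was not tested. Fzd5 differed by -0.88 ± 0.41 and Wnt2 by 1.30 ± 0.61, and the adjusted p was 0.849 for Lgr6, Fzd5 and Wnt2 alike in edgeR's test. The Wnt2 value was 0.68 without mouse 2465 and 1.94 without mouse 2237. Wnt2b, at 4 to 47 counts, differed by 1.79 ± 0.60 (adjusted p = 0.849, edgeR). Anagen sums in the uninvolved libraries were 101.7 and 70.2 CPM under IL-17C+KO and 13431, 69.0 and 2896 CPM under IL-17C+. Their part in these differences was not tested.

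Other genes of the pathway were taken from lists by function, again over all 5 mice, and none of them passed the FDR in edgeR. Of 14 other secreted or membrane proteins listed as modulators of the pathway 13 were tested, 6 higher and 7 lower in lesional skin. At an unadjusted p under 0.05, 3 were higher (Draxin, Sfrp1 and Sfrp2) and 4 lower (Sfrp4, Dkkl1, Kremen2 and Sfrp5). Of all genes, 10.1% were higher and 11.5% lower at this threshold. Each of these 7 had its direction in all 5 mice, as did 9.12% of all genes that were higher and 9.73% that were lower. Draxin had 5.62 and 27.1 CPM in lesional and 0.179 and 0.537 CPM in uninvolved skin labelled IL-17C+KO, and 1.44, 3.42 and 5.41 CPM in lesional and 0.743, 0.239 and 0.345 CPM in uninvolved IL-17C+ skin. Every lesional value of this secreted axon guidance protein, which also antagonises WNT signalling, exceeded every uninvolved value, with a log2 difference of 3.89 ± 0.71 (adjusted p = 0.0721, edgeR). The uninvolved values, 0.179 to 0.743 CPM, lie close to the floor of 0.0965 to 0.142 CPM, so the size of this difference rests on few counts. Sfrp4 had 5.01 and 2.10 CPM in lesional and 10.1 and 30.3 CPM in uninvolved skin labelled IL-17C+KO, and 2.50, 1.56 and 1.06 CPM in lesional and 8.42, 16.8 and 6.56 CPM in uninvolved IL-17C+ skin. Lesional values of this secreted Frizzled-related protein all lay below the uninvolved ones, with a log2 difference of -2.52 ± 0.46 (adjusted p = 0.0721, edgeR). Sfrp1, of the same family, had 39.4 and 113 CPM in lesional and 29.4 and 53.7 CPM in uninvolved skin labelled IL-17C+KO, and 57.1, 77.3 and 57.5 CPM in lesional and 43.5, 36.0 and 30.6 CPM in uninvolved IL-17C+ skin. It was higher in the lesional biopsy of each mouse, by 0.78 ± 0.18 on the log2 scale (adjusted p = 0.0978, edgeR).

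All 9 noncanonical co-receptors and polarity genes had a positive log2 difference, with a median of 0.38 against -0.01 over all genes, and 2 were higher at an unadjusted p under 0.05, as were 10.1% of all genes. The 12 fibroblast markers were also all positive, with a median of 1.34 and 9 at an unadjusted p under 0.05, and their part in these differences was not tested. The smallest p values were those of Prickle2, a planar polarity protein (0.70 ± 0.17, adjusted p = 0.106, edgeR), Ror2, a receptor of WNT5A (0.98 ± 0.37, 0.185), and the co-receptor Ptk7 (0.50 ± 0.25, 0.306). Of these 9 genes only Prickle2 and Ror2 were higher in lesional skin of every mouse, as were 9.12% of all genes. Ptk7 was lower in mice 2296 and 2392. Of 18 intracellular core genes 12 were positive, and the β-catenin inhibitor Ctnnbip1 differed by -0.63 ± 0.17, Dvl1 by -0.32 ± 0.16 and the feedback inhibitor Nkd1 by 0.52 ± 0.29. Of 12 nuclear factors 10 were positive, among them Tcf7l2 (0.47 ± 0.17), the co-repressor Tle1 (0.39 ± 0.17) and Tcf7 (0.46 ± 0.25). Reported target genes were positive in 8 of 11 cases. They included the secreted matrix protein Wisp1 (2.28 ± 0.56, adjusted p = 0.108, edgeR), Bmp4 (-0.86 ± 0.23, 0.116) and the transcription factor Twist1 (0.50 ± 0.17, 0.163). Wisp1 was highest in the lesional biopsies of mice 2465 and 2275 (28.1 and 13.1 CPM), which also had the highest fibroblast marker sums. The lesional biopsy of mouse 2392 had 3.62 CPM of Wisp1 at a sum of 9548 CPM. The part of fibroblast markers in the differences of target genes was not tested. Of the 3 genes of WNT secretion, the acyltransferase Porcn differed by 0.79 ± 0.28, the deacylase Notum by -0.79 ± 0.54 and the carrier Wls by -0.05 ± 0.20. Receptor turnover ligases, which R-spondins counter, differed by 0.16 ± 0.28 (Znrf3) and -0.02 ± 0.23 (Rnf43).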

How the data were processed

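RNA of 10 skin biopsies was sequenced on an Illumina Genome Analyzer IIx, per the labels. The authors used cutadapt 1.6, TopHat2 2.0.12, HTSeq and Cufflinks 2.2.1 and genome mm10, per the submitters' processing notes. Not given in the sources used here are the annotation, the strand setting and how multimapping reads were treated. Per the file headers, each deposited table lists gene symbols with a count and an FPKM. The deposited counts are whole numbers with a different sum in each library and were tested as raw counts. The deposited FPKM values, which the authors normalised to transcript length and library size, served for levels and for 2 alternative tests with limma on log2(FPKM + 1) and log2(FPKM + 0.1), whose fold changes are understated for low genes. Of the 44 members, 7 share exon bases with a gene on the opposite strand in GENCODE M21, and without a known strand setting their reads cannot be told apart. For Wnt7b that gene, AU022754, is itself counted.

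Genes were filtered with edgeR 4.0.16 (R 4.3.3; filterByExpr with the groups), scaled by TMM and tested with robust quasi-likelihood fits, with p-values adjusted by the Benjamini-Hochberg method over all genes tested and an FDR of 0.05. The lesional effect was fitted over all 10 libraries with mouse blocks, and genotype labels were compared within 1 skin type, so that no mouse counted more than 1 time. The mouse number in the labels, and the design text, pair the biopsies. Deviations of the 2 biopsies of a mouse from their group means correlated at -0.122 to 0.0338 over all genes and at -0.264 to 0.286 over the members. With 2 mice labelled IL-17C+KO, their deviations mirror each other, so both mice have the same value by construction (-0.0724 over all genes). Standard errors come from the log2 difference and its F statistic. CPM values are scaled by TMM, and per-mouse log2 CPM differences use a prior count of 2. Floors cover counting error only. The mice are separate animals, 3 and 2 per label. No 2 libraries held identical values.

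The members and the gene lists were chosen with earlier results of these data known. Statistics are given in full for up to 8 members with the smallest p over all 5 mice and up to 4 in each other comparison, among those with a mean of at least 1 CPM. Axin2, Lgr5, Lgr6, Wif1 and Wnt5a are given by biopsy whatever their p, and up to 3 genes are named from each pathway list by smallest p. Other names were chosen after their values were seen. Alternatives were RLE scaling, no filter, DESeq2 1.42.0, limma 3.58.1 (voom and FPKM), each mouse left out, mice 2275 and 2465 left out together, no block, and fits of other sets of libraries. The tests were tried on simulated counts first.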

Additional observations from a re-analysis of the deposited data

Results flagged for a closer look

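Of the 39 tested members, 3 are given here, marked by 2 checks. The check for 1 outlying mouse marked 1 member, and marks about 1 in 20 groups by chance. The check for opposite directions under the 2 labels marked 2 members, and its rate by chance was not computed. With 39 members, flags from either check can arise by chance. Wnt7b, a ligand that activates hair follicle stem cells in mice, had a lesional minus uninvolved log2 difference of 1.22 in mouse 2237, while the other 4 mice had -1.46 to -0.80. The gap between mouse 2237 and the nearest mouse was 0.751 of the whole range, above the limit of 0.71 for 5 values. The uninvolved biopsy of that mouse had 21.6 CPM of Wnt7b. In the biopsies of this mouse the sums of anagen hair follicle markers were 9867 CPM in lesional and 13431 CPM in uninvolved skin. The 7 neutrophil markers summed to 2203 and 2093 CPM in the same order. In the other 4 mice these sums were 2281 to 12467 CPM in lesional and 58.9 to 2430 CPM in uninvolved skin. Most of each sum came from S100a8 and S100a9, at 880 and 1292 CPM in lesional and 836 and 1237 CPM in uninvolved skin of mouse 2237. Csf3r, Fpr1, Trem1 and Clec4d were lower in the lesional biopsy of mouse 2237 than in any other lesional biopsy, and Cxcr2 was not. Il17c stood at 10593 CPM in the lesional biopsy of mouse 2237 and 15172 CPM in the uninvolved one, the highest of the 10 libraries. The part of these values in the Wnt7b difference was not tested.

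Fzd2 was lower in lesional skin of both mice labelled IL-17C+KO, with log2 differences of -0.11 and -0.03, and higher in all 3 IL-17C+ mice. The difference of the 2 lesional changes was -0.48 on the log2 scale (adjusted p = 1, edgeR). The ligand Wnt2b was lower in both mice labelled IL-17C+KO, with -0.72 and -0.02, and higher in all 3 IL-17C+ mice. Its difference of the changes was -1.31 on the log2 scale (adjusted p = 1, edgeR).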

How the results depend on the processing

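Under the alternatives, 74 counts of members past the FDR were 0, as with the settings used in the report, and 6 were not. DESeq2 gave 7 members over all 5 mice, 3 in the mice labelled IL-17C+KO and 1 between labels in lesional skin. Leaving out 1 mouse at a time gave 0 to 3 members over all 5 mice (3 without mouse 2237) and 0 to 1 between labels in uninvolved skin (Fzd9 without mouse 2275). The fit with no replicate block gave 2 members over all 5 mice, Wnt3a (adjusted p = 0.0326) and Wnt2 (adjusted p = 0.0436, edgeR), and the pairing by mouse changed no other count. Without mice 2275 and 2465 together, the count was 0 in each of the 6 comparisons. The log2 difference of Wif1 over all 5 mice turned to -0.053 with limma-voom, -0.012 without mice 2275 and 2465 and -0.30 with no replicate block, and ranged from -0.16 to 0.36 with 1 mouse left out. That of Lgr5 turned to -0.10 without mice 2275 and 2465. The cause of these moves was not tested. Among the alternative log2 differences of named members, 402 kept their direction and their side of the threshold, 15 passed the threshold and 7, those given above, turned. Depth limits Wnt1, Wnt8a, Wnt8b, Dkk1 and Dkk4, which could not be tested.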
